A study of Homo sapiens with 24 samples.

Results

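The genes described here are 48 effector genes of monocytes, macrophages and granulocytes: Fc receptors and signalling adapters, pattern and scavenger receptors, inhibitory receptors, integrins, subunits of the phagocyte oxidase, lectins, and proteins of granules and lysosomes. They were chosen by symbol from a fixed list. The rule used no measured values, but the list was made with earlier results of these data known. Of the 48, 47 had a row in the table of 13033 genes, and TLR8 was not analysed here. Poly(A) RNA was sequenced from 2 human acute myeloid leukaemia (AML) cell lines. Molm-14 carries FLT3-ITD, an internal tandem duplication in the receptor kinase FLT3, and OCIAML-3 carries NRAS Q61L, an activating RAS mutation. Each line was given the solvent DMSO, or RMC-7977 at 25 nM for 2 or 24 h. RMC-7977 is an inhibitor that binds RAS proteins in their active, GTP-loaded state. The groups held 4 libraries each, except OCIAML-3 at 24 h with 3, because its replicate 3 was not analysed here. Each line is a single established cell line, so a difference between Molm-14 and OCIAML-3 is a difference between 2 lines and not between 2 genotypes.

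Monocytes and macrophages take up antibody-coated particles through Fc receptors, which signal through the adapter FCER1G or carry their own signalling tails. Integrins that share the beta chain ITGB2 hold these cells to vessel walls and to complement-coated targets, and the phagocyte oxidase, assembled from membrane and cytosolic subunits, makes superoxide in the phagosome. Granule proteases and myeloperoxidase are made mainly at the promyelocyte stage, whereas many surface receptors appear later in maturation, and AML cells are held at early points of this course.

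Values were log2 CPM as deposited by the authors, that is, a gene's reads scaled to the effective size of its library, with a small prior. In the text a level is CPM with the prior taken off, so that 0 CPM is 0 reads, and a change is a log2 fold change ± SE on the scale with the prior, where 1 unit is a doubling. Library values are given in the order of the replicate numbers (1, 2 and 4 for OCIAML-3 at 24 h), levels with ± are means and SDs (n = 4, or n = 3 for OCIAML-3 at 24 h), and adjusted p-values are from limma, over all 13033 genes. Coordinates are those of GENCODE 29 on GRCh38. A call needed both an adjusted p under 0.05 and a change of 1 or more on the log2 scale, up or down; "rose" and "fell" mean called. Effective library sizes recovered from the spacing of low values ran from 15.4 to 22.4 M reads (median 18.4 M), and no library stood apart from its group (lowest correlation within a group 0.9912). Separate cultures for the libraries of a group are not stated in the labels, so p-values measure the spread between libraries, which may be technical. The model has a single spread per gene over the 6 groups of both lines. For a gene with few reads in Molm-14, the SE of a change in OCIAML-3 also carries the spread of those Molm-14 libraries. The labels name a single DMSO group per line with no time, so the comparisons at 2 and 24 h of a line share their DMSO libraries. All 9 genes of a myeloid identity list had a row, with summed levels of 1135 to 1196 CPM in Molm-14 DMSO and 2243 to 2373 CPM in OCIAML-3 DMSO, and of 1764 to 1849 and 6972 to 7368 CPM at 24 h; the list includes the members LYZ, CD33 and MPO. Of lists for other cell types, 2 of 10 T and NK cell genes had a row, 1 of 5 B cell genes and 0 of 7 erythroid genes; CD3D, CD3E and HBB had none. The T and NK cell sum (TRAC and NKG7) was 17.0 to 29.9 CPM over the Molm-14 libraries and at most 2.62 CPM in OCIAML-3, and PAX5 of the B cell list went from 17.9 to 22.1 CPM in Molm-14 DMSO to 8.17 to 8.6 CPM at 24 h. The sum of the 2 megakaryocyte and platelet genes with a row, of 5 in the list, was 17.2 to 20.8 CPM in OCIAML-3 at 24 h against 4.11 to 6.01 CPM in DMSO. The sum of 3 of 8 epithelial, stromal and endothelial genes was 76.6 to 79.8 CPM there, against 32.4 to 36.4 CPM, and in Molm-14 it was 172 to 174 CPM at 2 h and 135 to 144 CPM at 24 h, against 87.3 to 89.6 CPM in DMSO. Their part in the results was not tested.

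Untreated, the lines differed in most of these genes, and most often with the higher level in OCIAML-3. In DMSO, 30 of 47 members were higher in OCIAML-3 and 5 were lower, 74.5% of them called against 30.2% of all genes (17.9% called higher and 12.2% lower). The median log2 difference was 1.56 over the members and 0.07 over all genes. These figures include CD14, TLR2, SIGLEC7, CYBB, LGALS12, FCN1 and MMP9, which were below 1 CPM in every Molm-14 group. Every gene of the table reached 1 CPM in at least 2 libraries, so these 7 have a row through OCIAML-3 alone and had to be higher there; their values are a description. Over the 40 other members, a split made after seeing the data, 23 were higher in OCIAML-3 and 5 lower (57.5% and 12.5%), with a median of 1.13. Of the 11980 genes that reached 1 CPM in a group of each line, 13.4% were higher and 11% lower, with a median of 0.03. In bulk RNA, more cells with a transcript and more of it per cell cannot be told apart. With a median-of-ratios scaling 27 were called higher, without FCGR2A (0.96), MS4A6A (0.90) and IRF8 (0.90). SIGLEC7, a sialic acid-binding inhibitory receptor, had 2411 reads over the 4 OCIAML-3 libraries and 3 over the 4 Molm-14 libraries, a 710-fold ratio (exact 95% interval 243 to 3446, counting error only). CYBB, the catalytic membrane subunit of the oxidase, was at 290, 311, 306 and 329 CPM in OCIAML-3 and at 0.138, 0, 0.169 and 0.248 CPM in Molm-14 (10.44 ± 0.27). The galectin gene LGALS12 (7.19 ± 0.29), the adapter FCER1G (7.13 ± 0.17), the pattern receptor TLR2 (7.07 ± 0.22) and the actin-binding protein LSP1 (6.19 ± 0.12) were also far higher in OCIAML-3. Such values of genes with few reads in Molm-14 depend on the prior: with a prior of 1 CPM the CYBB difference was 8.09, and that of LGALS12 5.66.

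The 5 members that were lower in OCIAML-3 in DMSO were PLD4 (-2.60 ± 0.08), LST1 (-2.17 ± 0.06), CD300A (-1.09 ± 0.11), ITGAM (-1.08 ± 0.11) and ITGAL (-1.03 ± 0.04). Of these, ITGAM was no longer called without OCIAML-3 DMSO replicate 2 (-0.99), nor ITGAL without replicate 3 (-0.99), and a prior of 1 CPM ended the calls of CD300A (-0.96) and ITGAM (-0.88). Among the higher members, MS4A6A was no longer called without Molm-14 DMSO replicate 1 (0.90) or 2 (0.98) or OCIAML-3 DMSO replicate 3 (0.98). IRF8 was no longer called without Molm-14 DMSO replicate 2 (1.00) or 4 (0.99) or OCIAML-3 DMSO replicate 3 (0.99). MPO and S100A8 overlapped between the lines. Of the 47 members, 32 had a group mean of at least 1 CPM in all 6 groups.

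**Figure D1:**
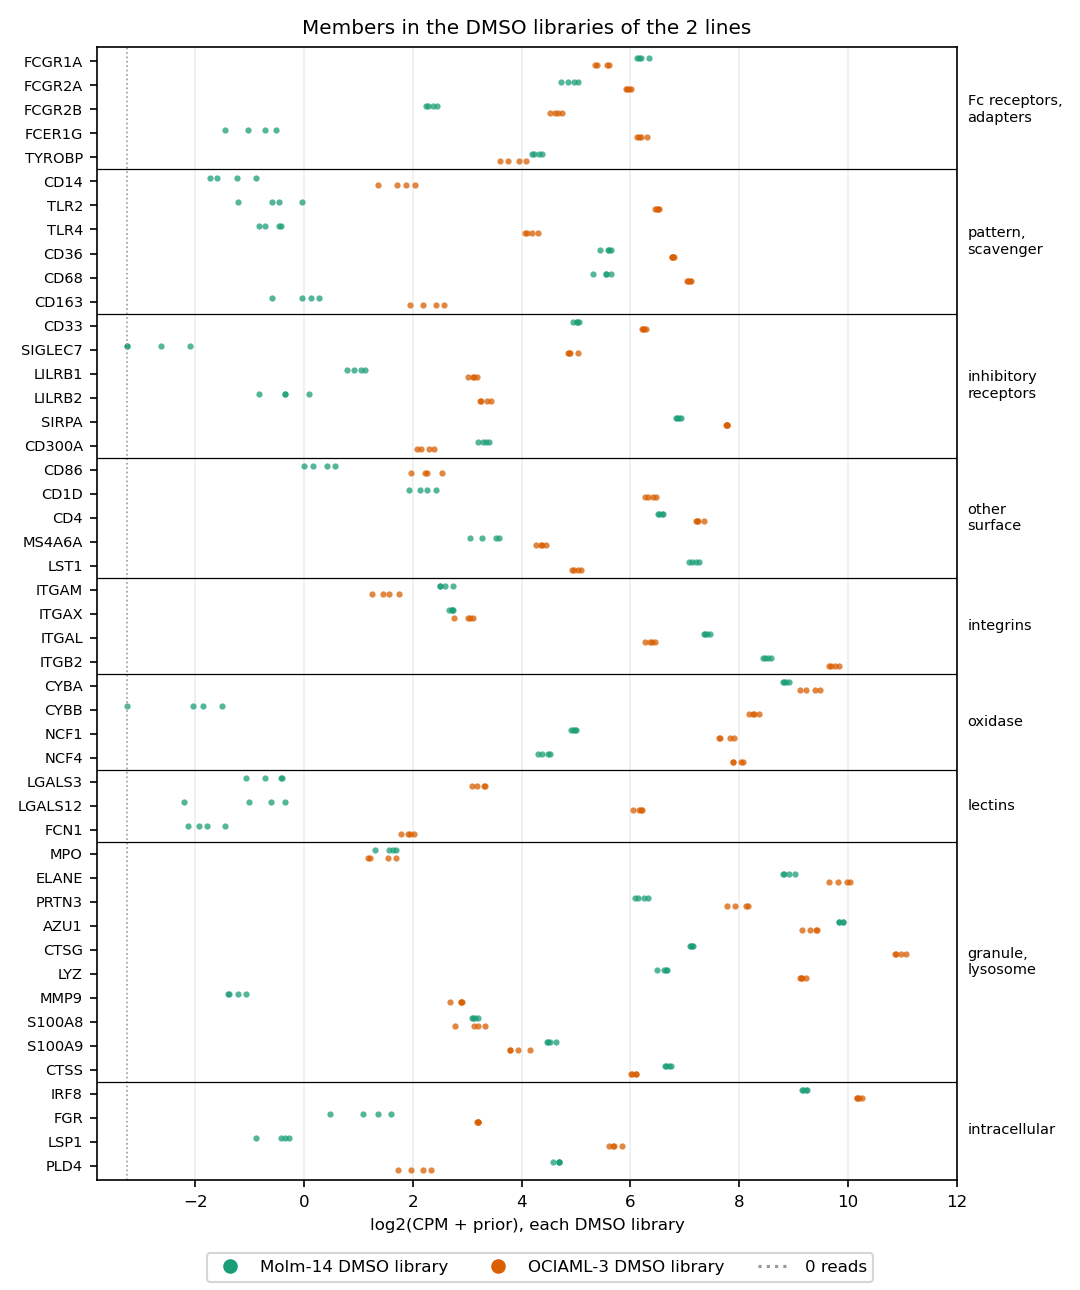
Level of each of the 47 members in each DMSO library, as log2(CPM + prior) on the horizontal axis, for Molm-14 (green) and OCIAML-3 (orange), with members grouped by role and the dotted line at 0 reads. In CYBB, SIGLEC7 and LGALS12 the libraries of the lines lie far apart, whereas those of MPO and S100A8 overlap.

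At 24 h of RMC-7977 the members moved mostly upwards in both lines, and at 2 h few of them had moved. In Molm-14, 2 members rose and 4 fell at 2 h, 12.8% of 47 against 7.29% of all genes (4.3% higher, 2.98% lower). At 24 h in Molm-14, 20 rose and 3 fell, 48.9% against 17.9% of all genes (11.4% higher, 6.57% lower). In OCIAML-3 at 2 h, 1 rose and 4 fell, 10.6% against 6.58% (3.23% higher, 3.35% lower). After 24 h in OCIAML-3, 20 rose and 8 fell, 59.6% against 35.4% (18.4% higher, 17.1% lower). The OCIAML-3 falls count CD14 at both times, and FCN1 and MMP9 at 24 h. These have a row only through the groups where they are high, so their falls are a description. The median log2 fold change of the members was 0.01, 0.73, -0.10 and 0.65 in these 4 comparisons, beside 0.00, 0.00, 0.02 and 0.01 over all genes. When library totals replaced the authors' scaling, the median of all genes moved to 0.10 in Molm-14 and 0.18 in OCIAML-3 at 24 h. The members called higher at 24 h then numbered 21 and 22, and those called lower stayed at 3 and 8.

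**Figure D2:**
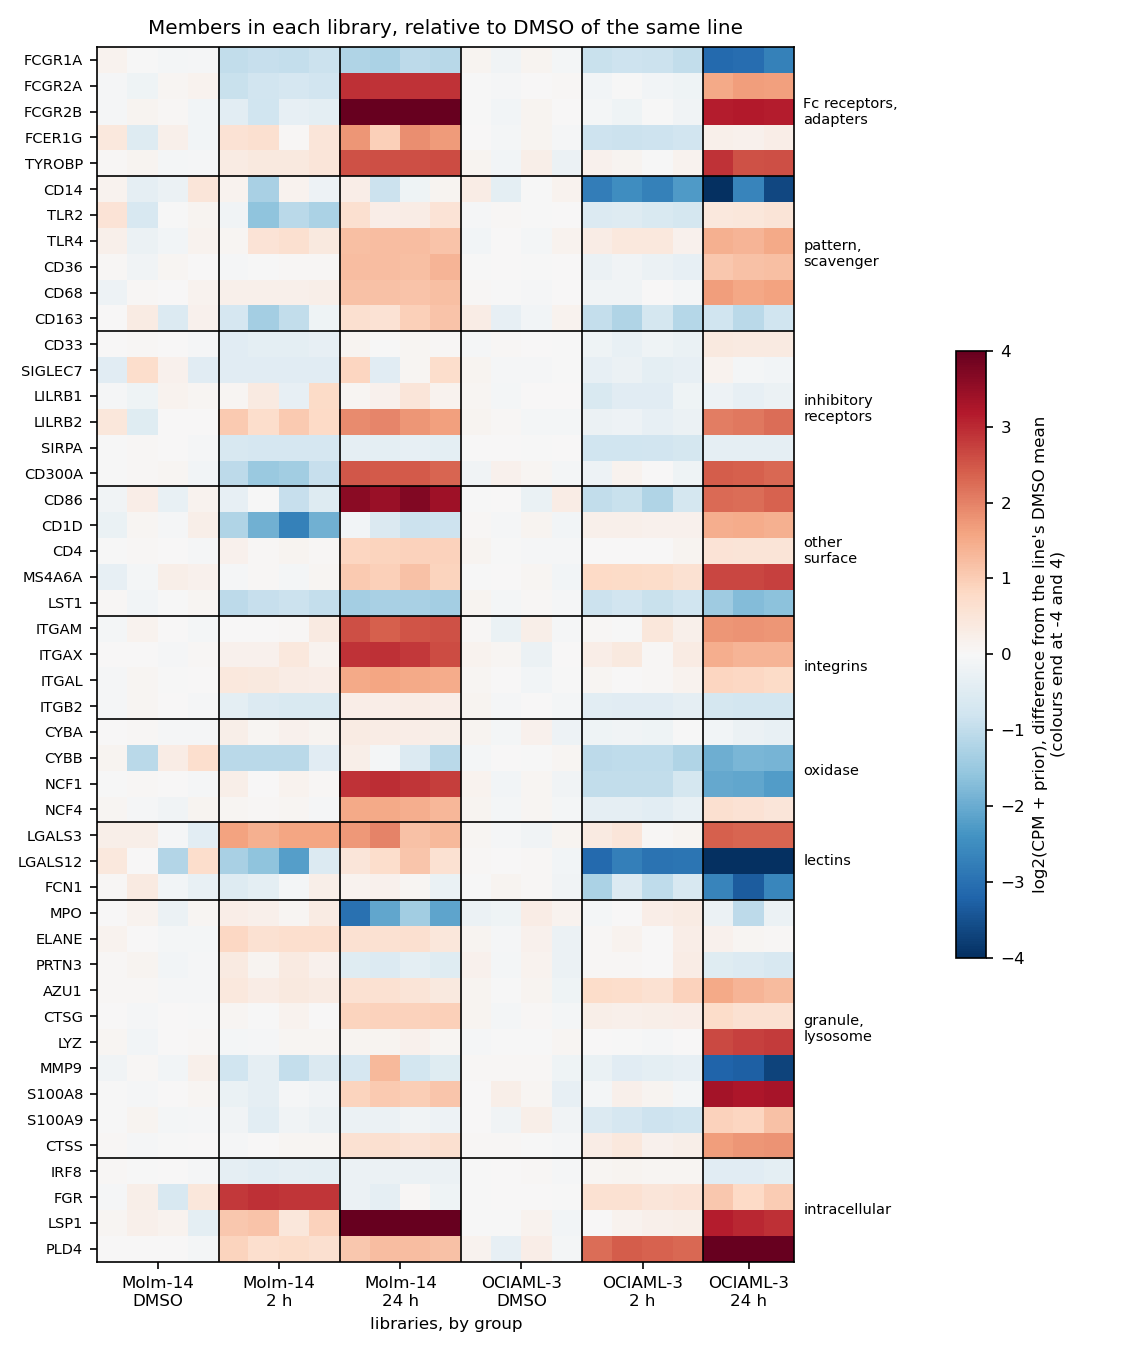
Each column is 1 of the 23 libraries and each row 1 of the 47 members by role; colour gives log2(CPM + prior) minus the mean of the DMSO libraries of the same line, ending at -4 and 4. Several receptor and integrin rows, such as FCGR2B, CD300A and ITGAX, are red at 24 h in both lines. FCGR1A and LST1 are blue in both, and NCF1 is red in Molm-14 and blue in OCIAML-3.

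The Fc receptor genes took opposite directions. FCGR2A and FCGR2B rose in both lines at 24 h, the adapter TYROBP rose with them, and FCGR1A fell in both. FCGR1A (chr1:149782671-149792518, plus strand) encodes the high-affinity receptor for IgG, FCGR2A (chr1:161505430-161524013, plus strand) an activating low-affinity receptor, and FCGR2B (chr1:161663147-161678654, plus strand) the inhibitory low-affinity receptor. FCGR2B lies 139 kb from FCGR2A, and FCER1G 285 kb from it on the other side. Sequence from RefSeq (GRCh38.p14) is shown for the 100 bases before the start of FCGR1A (chr1:149782594-149782693, plus strand), FCGR2A (chr1:161505357-161505456, plus strand), FCGR2B (chr1:161663043-161663142, plus strand) and TYROBP (chr19:35908296-35908395, minus strand), because genes with alike promoter stretches moved in opposite directions here. Capitals mark GAGGAA or its reverse complement TTCCTC, the core recognised by the myeloid factor PU.1 (SPI1); a match of letters is a description and not a shown binding site.
FCGR1A: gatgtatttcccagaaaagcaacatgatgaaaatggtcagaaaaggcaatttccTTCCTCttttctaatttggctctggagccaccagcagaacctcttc
FCGR2A: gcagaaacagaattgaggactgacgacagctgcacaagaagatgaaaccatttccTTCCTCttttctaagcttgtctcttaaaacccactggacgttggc
FCGR2B: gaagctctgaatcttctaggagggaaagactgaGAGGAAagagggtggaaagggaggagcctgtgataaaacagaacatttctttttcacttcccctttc
TYROBP: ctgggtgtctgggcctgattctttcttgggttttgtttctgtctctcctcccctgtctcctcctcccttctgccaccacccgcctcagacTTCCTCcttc
The match begins 46 bases before the start in FCGR1A and 45 bases before it in FCGR2A, inside a run of 20 bases that both windows hold, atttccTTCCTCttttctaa. In FCGR2B it begins 67 bases before the start, and in TYROBP 10 bases.

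FCGR2A in Molm-14 was at 28.9, 26.2, 31.1 and 32.7 CPM in DMSO, 15.9, 17.5, 18.4 and 17.2 CPM at 2 h and 226, 219, 222 and 222 CPM at 24 h. Its 2 h libraries all lay below the DMSO libraries (-0.78 ± 0.06, adjusted p = 5.0e-13), a change under the threshold of size, and its 24 h libraries all lay above them (2.90 ± 0.06, adjusted p = 3.6e-27). In OCIAML-3 it was at 61.3, 60.3, 62.4 and 64.7 CPM in DMSO, 57.6, 61.6, 58.2 and 54.7 CPM at 2 h and 176, 199 and 194 CPM at 24 h. It rose there too at 24 h (1.61 ± 0.06, adjusted p = 1.0e-20), from a DMSO level that was already higher than in Molm-14. FCGR2B went from 4.74, 5.36, 5.08 and 4.6 CPM in Molm-14 DMSO to 259, 252, 255 and 244 CPM at 24 h (5.65 ± 0.07, adjusted p = 1.4e-31), the second-largest rise of any member in that line. In OCIAML-3 it went from 24.3, 23, 26.7 and 25.2 CPM to 217, 222 and 221 CPM (3.15 ± 0.08, adjusted p = 1.9e-25), so the lines, far apart in DMSO, came close to each other at 24 h without overlapping. FCGR2C, a nearly identical gene of the same cluster, was called with them (5.61 in Molm-14 and 4.02 in OCIAML-3 at 24 h). How reads were divided among FCGR2A, FCGR2B and FCGR2C is uncertain.

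FCGR1A was lower than DMSO in every treated library. In Molm-14 it was at 81.4, 72.9, 69.1 and 71.6 CPM in DMSO, 36.9, 38.9, 37.7 and 40.1 CPM at 2 h and 32, 30.5, 35.8 and 34 CPM at 24 h. The change was -0.94 ± 0.07 at 2 h, not called, and -1.15 ± 0.07, adjusted p = 9.1e-15 at 24 h. OCIAML-3 held 47.6, 40.7, 48.4 and 41.8 CPM in DMSO, 23.9, 25, 24.5 and 22.5 CPM at 2 h and 5.02, 5.29 and 6.69 CPM at 24 h. Its libraries separated already at 2 h (-0.89 ± 0.07, not called), and the gene fell by 24 h (-2.96 ± 0.08, adjusted p = 1.7e-24). The pseudogene FCGR1CP, at 3.39 CPM in Molm-14 DMSO, holds much of the same sequence, and the division of reads between the copies is uncertain.

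TYROBP (chr19:35904401-35908295, minus strand), the adapter of several activating receptors, rose from 19.8, 20.6, 18.2 and 18.6 CPM to 113, 115, 115 and 117 CPM in Molm-14 (2.57 ± 0.08, adjusted p = 1.5e-22) and from 15.3, 13.3, 16.8 and 12 CPM to 106, 83.5 and 86 CPM in OCIAML-3 (2.67 ± 0.09, adjusted p = 1.0e-22). The lines did not differ in this response beyond the threshold (0.10 ± 0.12, adjusted p = 0.443 for OCIAML-3 minus Molm-14). FCER1G (chr1:161215234-161220699, plus strand), the gamma chain of activating Fc receptors, had 0.597, 0.26, 0.506 and 0.381 CPM in Molm-14 DMSO and 1.67, 0.909, 1.81 and 1.59 CPM at 24 h (1.56 ± 0.17, adjusted p = 1.7e-09). It stayed low in that line after its rise, and the call ended with a prior of 1 CPM (0.79). In OCIAML-3 it was at 73.3 ± 4.18 CPM in DMSO, 41.5 ± 1.46 CPM at 2 h and 85.4 ± 2.67 CPM at 24 h, with -0.82 ± 0.17 and 0.22 ± 0.18, not called.

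**Figure D3:**
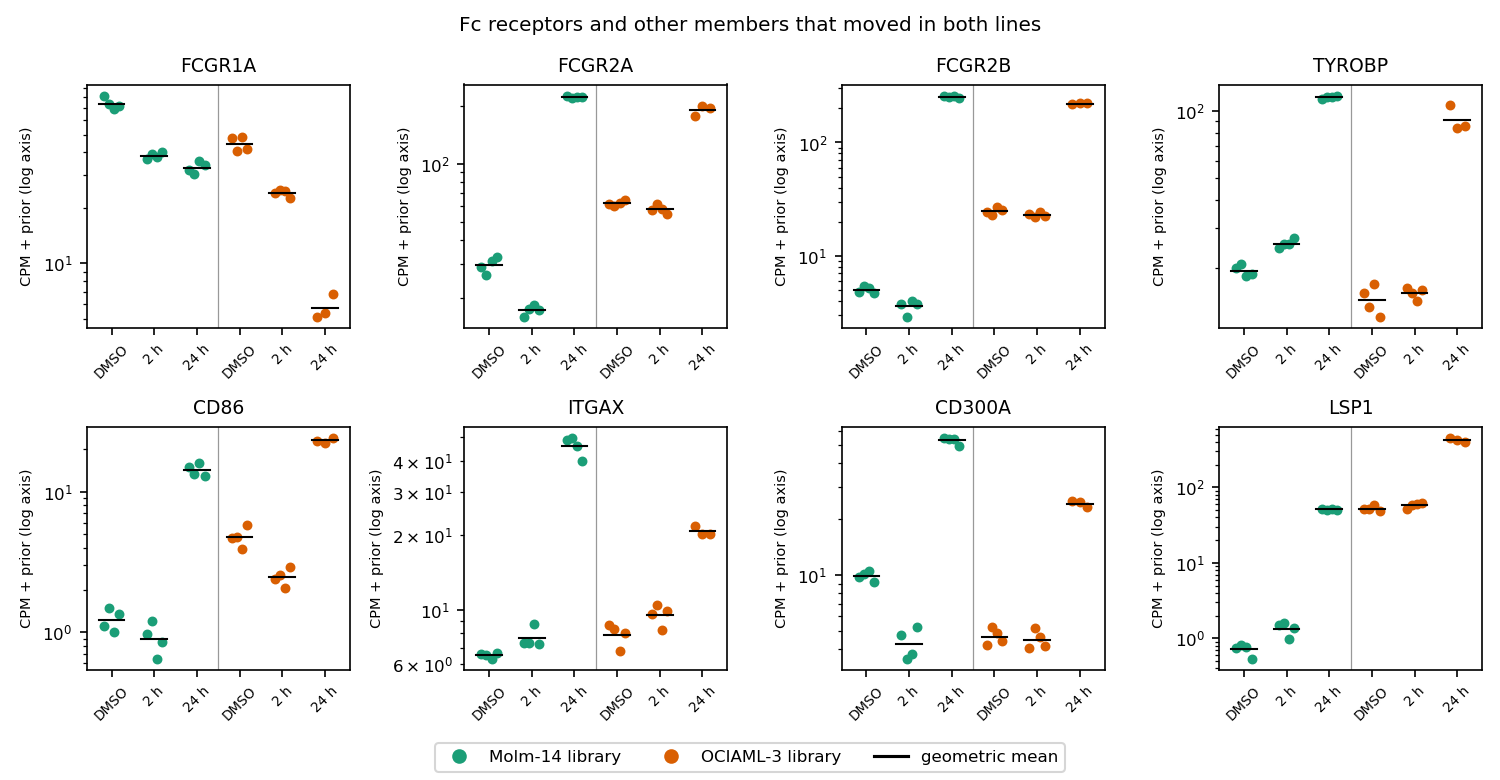
CPM plus the prior (log axis) of 8 members in every library of the 6 groups, Molm-14 in green and OCIAML-3 in orange, with a bar at the geometric mean. FCGR2A, FCGR2B, TYROBP, CD86, ITGAX, CD300A and LSP1 lie highest at 24 h in each line, and FCGR1A lies lowest there.

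Among 6 pattern and scavenger receptors with a row, TLR4, CD36 and CD68 rose at 24 h in both lines, and CD14 fell in OCIAML-3. CD14 (chr5:140631728-140633701, minus strand) is the co-receptor that hands lipopolysaccharide to TLR4. In OCIAML-3 it was at 3.98, 2.45, 3.18 and 3.56 CPM in DMSO, 0.39, 0.49, 0.41 and 0.596 CPM at 2 h and 0.0557, 0.427 and 0.166 CPM at 24 h. Every treated library lay below every DMSO library, with changes of -2.55 ± 0.34, adjusted p = 1.9e-07 at 2 h and -3.56 ± 0.37, adjusted p = 4.3e-10 at 24 h; with a prior of 1 CPM these were -1.53 and -1.82. Molm-14 held 0.434 CPM or less of CD14 in all of its libraries, and no change was called there. Only the OCIAML-3 DMSO libraries reached 1 CPM, so CD14 has its row through the group where it is high. Its falls are a description. TLR4 (chr9:117704175-117724730, plus strand), the lipopolysaccharide receptor itself, rose in OCIAML-3 from 16.6, 18.1, 17 and 19.7 CPM to 48.4, 45.7 and 50.6 CPM (1.43 ± 0.13, adjusted p = 3.3e-11). In Molm-14 it rose from 0.644, 0.456, 0.506 and 0.62 CPM to 1.41, 1.44, 1.43 and 1.33 CPM (1.20 ± 0.12, adjusted p = 4.3e-10), a call that ended with a prior of 1 CPM (0.63).

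CD36 (chr7:80369575-80679277, plus strand), a scavenger receptor for oxidised lipids and long-chain fatty acids, rose in Molm-14 from 48.6, 43.4, 50 and 48.2 CPM to 112, 112, 110 and 122 CPM (1.26 ± 0.05, adjusted p = 2.0e-20). It also rose in OCIAML-3, from 109, 111, 108 and 110 CPM to 229, 246 and 252 CPM (1.15 ± 0.05, adjusted p = 5.7e-19). CD68 (chr17:7579467-7582113, plus strand), a glycoprotein of macrophage lysosomes, rose from 39.7, 47, 46.6 and 50.1 CPM to 102, 104, 101 and 105 CPM in Molm-14 (1.17 ± 0.05, adjusted p = 5.8e-19) and from 138, 133, 131 and 137 CPM to 426, 391 and 407 CPM in OCIAML-3 (1.60 ± 0.05, adjusted p = 5.5e-22). Neither was called at 2 h in either line. CD163 (chr12:7470813-7503893, minus strand), the haptoglobin-haemoglobin receptor, overlaps CD163L1 on the same strand, so the division of reads between them is uncertain. It fell in OCIAML-3 at 2 h, from 5.85, 3.75, 4.46 and 5.28 CPM to 2.4, 2.02, 2.87 and 2.11 CPM (-1.0 ± 0.22, adjusted p = 2.9e-04), right at the threshold. That call ended without OCIAML-3 DMSO replicate 1 (-0.91) or 4 (-0.95), without 2 h replicate 2 (-0.94) or 4 (-0.96), with either other scaling (-0.93 and -0.98) and with a prior of 1 CPM (-0.79). At 24 h CD163 was not called in either line, at 0.83 ± 0.22 in Molm-14 and -0.89 ± 0.24 in OCIAML-3, and the difference between these responses was called (-1.71 ± 0.33, adjusted p = 4.3e-05). TLR2 (chr4:153684070-153705702, plus strand), the receptor of bacterial lipoproteins, was below 1 CPM in Molm-14 and fell there at 2 h, from 0.873, 0.325, 0.562 and 0.62 CPM to 0.501, 0.117, 0.216 and 0.172 CPM (-1.02 ± 0.22, adjusted p = 2.7e-04). Its libraries overlapped, and the call ended without DMSO replicate 1 (-0.84) or 4 (-0.99), without 2 h replicate 2 (-0.83) or 4 (-0.94), with library totals (-1.0) and with a prior of 1 CPM (-0.35). In OCIAML-3, TLR2 held 90 ± 2.42 CPM in DMSO and 125 ± 4.83 CPM at 24 h (0.47 ± 0.24, not called). Its 24 h libraries there all lay above DMSO, and the SE also carries the spread of the low Molm-14 libraries.

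Of the 6 inhibitory receptors, CD300A and LILRB2 rose in both lines at 24 h, and CD33, SIGLEC7, LILRB1 and SIRPA were called in no drug comparison. CD300A (chr17:74466399-74484796, plus strand) recognises phospholipids of dying cells. In Molm-14 it first fell and then rose: 9.66, 10.1, 10.4 and 9.11 CPM in DMSO, 4.65, 3.45, 3.67 and 5.17 CPM at 2 h and 55, 54.2, 54.2 and 49.6 CPM at 24 h. These changes were -1.21 ± 0.11, adjusted p = 2.8e-11 and 2.43 ± 0.11, adjusted p = 6.3e-19, and the 3 groups did not overlap. OCIAML-3 held 4.09, 5.14, 4.78 and 4.33 CPM in DMSO, 3.96, 5.07, 4.57 and 4.06 CPM at 2 h and 25, 24.6 and 23.1 CPM at 24 h. Here the 2 h libraries overlapped DMSO (-0.05 ± 0.11), the gene rose at 24 h (2.38 ± 0.11, adjusted p = 3.0e-18), and the difference between the lines at 2 h was called (1.15 ± 0.15, adjusted p = 2.6e-07). LILRB2 (chr19:54273821-54281184, minus strand), a receptor for MHC class I molecules, rose from 0.965, 0.456, 0.675 and 0.682 CPM to 2.81, 2.89, 2.52 and 2.34 CPM in Molm-14 (1.81 ± 0.14, adjusted p = 8.4e-13; 1.11 with a prior of 1 CPM). In OCIAML-3 it rose from 10.7, 10.2, 9.46 and 9.31 CPM to 41.6, 42.7 and 46.6 CPM (2.13 ± 0.15, adjusted p = 7.9e-14). Its neighbour LILRB1, 336 kb away, was at 1.87 ± 0.198 CPM in Molm-14 DMSO and 2.2 ± 0.314 CPM at 24 h (0.22 ± 0.16), and at 8.5 ± 0.405 and 7.11 ± 0.285 CPM in OCIAML-3 (-0.25 ± 0.17).

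SIRPA (chr20:1894167-1940592, plus strand), the receptor of the "do not eat me" ligand CD47, was lower in every treated group, always under the threshold of size. In OCIAML-3 it was at 220, 219, 217 and 219 CPM in DMSO and 126, 127, 128 and 134 CPM at 2 h (-0.76 ± 0.03, adjusted p = 4.5e-18). At 24 h the values were -0.36 ± 0.03 in Molm-14 and -0.35 ± 0.04 in OCIAML-3. CD33 (chr19:51225064-51243860, plus strand), the sialic acid-binding receptor that is a drug target in AML, was at 32.1 ± 0.947 CPM in Molm-14 DMSO and 33.4 ± 1.44 CPM at 24 h (0.06 ± 0.04). OCIAML-3 had 75.6 ± 1.77 CPM in DMSO and 97.3 ± 1.4 CPM at 24 h (0.36 ± 0.05). SIGLEC7, 71.5 kb from CD33, held 30.1 ± 1.82 CPM in OCIAML-3 DMSO and 29.7 ± 2.93 CPM at 24 h, and in Molm-14 it counted 3 reads in DMSO, 0 at 2 h and 6 at 24 h over 4 libraries each. The Molm-14 ratio of 24 h to DMSO was 1.9 (exact 95% interval 0.406 to 11.8, counting error only), so no change was detectable at this depth.

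CD86 had the largest rise at 24 h in Molm-14 of the 5 other surface proteins. CD86 (chr3:122055366-122121139, plus strand) is the costimulatory ligand that antigen-presenting cells show to T cells. It rose in Molm-14 from 1.01, 1.37, 0.899 and 1.24 CPM in DMSO to 14.9, 13.3, 15.9 and 12.8 CPM at 24 h (3.55 ± 0.16, adjusted p = 3.0e-18). In OCIAML-3 it was at 4.55, 4.67, 3.79 and 5.69 CPM in DMSO, 2.29, 2.45, 1.95 and 2.82 CPM at 2 h and 22.9, 22.2 and 24.1 CPM at 24 h. The 2 h libraries all lay below DMSO (-0.94 ± 0.16, not called; called without DMSO replicate 3, at -1.04, or 2 h replicate 4, at -1.03), and at 24 h the gene rose (2.29 ± 0.18, adjusted p = 4.8e-13). MS4A6A (chr11:60172014-60184666, minus strand), a membrane-spanning protein of myeloid cells, rose more in OCIAML-3. It went from 20.4, 20.7, 21.8 and 19.1 CPM to 35.5, 34.9, 34.3 and 31.4 CPM at 2 h (0.73 ± 0.08, not called) and 132, 132 and 136 CPM at 24 h (2.7 ± 0.09, adjusted p = 3.1e-22). In Molm-14 it went from 8.14, 9.57, 11.9 and 11.5 CPM to 20.9, 19.9, 22.9 and 18.9 CPM (1.01 ± 0.08, adjusted p = 2.7e-12), and this call ended without DMSO replicate 1 (0.91) or 2 (0.99), without 24 h replicate 3 (0.96) and with a prior of 1 CPM (0.95). The response was larger in OCIAML-3 (1.68 ± 0.12, adjusted p = 5.4e-13).

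CD1D (chr1:158179947-158184896, plus strand), which presents lipids to natural killer T cells, fell in Molm-14 at 2 h and rose in OCIAML-3 at 24 h. Molm-14 DMSO held 3.72, 4.69, 4.27 and 5.27 CPM and the 2 h group 1.87, 1.1, 0.594 and 1.09 CPM (-1.94 ± 0.21, adjusted p = 1.9e-07). At 24 h its libraries overlapped DMSO at 4.11, 2.94, 2.38 and 2.47 CPM (-0.60 ± 0.21, not called). OCIAML-3 held 84.8, 79.5, 88.3 and 76.5 CPM in DMSO, 94.1, 94.8, 91.9 and 93.5 CPM at 2 h and 227, 229 and 222 CPM at 24 h, and the gene rose at 24 h (1.46 ± 0.23, adjusted p = 9.4e-06). The difference between the lines was called at 2 h (2.13 ± 0.30) and at 24 h (2.06 ± 0.32). LST1 (chr6:31586124-31588909, plus strand), a leukocyte-specific transcript of the MHC class III region, fell in both lines at 24 h. Molm-14 DMSO held 148, 135, 141 and 153 CPM, the 2 h group 70.3, 75.7, 78.7 and 75.1 CPM (-0.94 ± 0.06, not called) and the 24 h group 56.1, 58.4, 58.4 and 55.8 CPM (-1.33 ± 0.06, adjusted p = 8.0e-19). In OCIAML-3 it went from 34.2, 30.2, 32.7 and 30.9 CPM to 17.6, 18.9, 17.2 and 18.4 CPM at 2 h (-0.83 ± 0.06, not called) and 11.8, 9.46 and 10.1 CPM at 24 h (-1.61 ± 0.06, adjusted p = 1.8e-20). CD4, which monocytes carry as well as helper T cells, was above DMSO by less than the threshold at 24 h. It was at 94.2 ± 2.85 and 175 ± 3.97 CPM in Molm-14 (0.90 ± 0.04), and at 153 ± 7.2 and 220 ± 2.09 CPM in OCIAML-3 (0.52 ± 0.04). Promoter windows are shown for CD86 (chr3:122055262-122055361, plus strand), MS4A6A (chr11:60184667-60184766, minus strand) and, from the granule genes below, S100A8 (chr1:153391189-153391288, minus strand), as members that rose in both lines, with the same capitals.
CD86: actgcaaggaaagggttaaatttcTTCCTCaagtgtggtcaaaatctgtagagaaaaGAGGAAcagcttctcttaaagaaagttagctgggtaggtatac
MS4A6A: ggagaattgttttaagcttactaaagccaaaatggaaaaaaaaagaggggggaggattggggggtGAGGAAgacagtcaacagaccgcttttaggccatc
S100A8: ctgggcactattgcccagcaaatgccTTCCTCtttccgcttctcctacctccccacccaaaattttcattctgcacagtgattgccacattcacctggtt
The CD86 window holds 2 matches, and each of the others holds 1. CD300A, LGALS3 and LILRB2, which also rose in both lines, held no match in windows of 300 bases.

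Among the integrins, the alpha chains ITGAM and ITGAX rose in both lines, ITGAL rose in Molm-14, and the shared beta chain ITGB2 was called in no drug comparison. ITGAM (chr16:31259967-31332892, plus strand) and ITGAX (chr16:31355134-31382997, plus strand), alpha chains of the complement receptors, lie 22.2 kb apart, with ITGAL 737 kb from ITGAM. ITGAM in Molm-14 was at 5.56, 6.57, 5.93 and 5.58 CPM in DMSO, 5.93, 5.92, 6.06 and 7.52 CPM at 2 h and 35.7, 31.4, 33.9 and 35.3 CPM at 24 h (2.51 ± 0.11, adjusted p = 1.7e-18). In OCIAML-3 it went from 2.86, 2.27, 3.26 and 2.64 CPM to 9.58, 9.78 and 9.63 CPM at 24 h (1.78 ± 0.12, adjusted p = 2.6e-14). ITGAX rose from 6.48, 6.44, 6.22 and 6.59 CPM to 48.4, 49.6, 45.9 and 40 CPM in Molm-14 (2.81 ± 0.09, adjusted p = 2.9e-22) and from 8.54, 8.23, 6.66 and 7.94 CPM to 21.6, 20.2 and 20.2 CPM in OCIAML-3 (1.39 ± 0.10, adjusted p = 2.8e-14). The ITGAX response was smaller in OCIAML-3 (-1.42 ± 0.13, adjusted p = 9.8e-11), while that of ITGAM was below the threshold of size (-0.73 ± 0.17, adjusted p = 3.8e-04). ITGAL (chr16:30472658-30523185, plus strand), the alpha chain of the leukocyte receptor for ICAM proteins, rose in Molm-14 from 163, 176, 166 and 169 CPM to 478, 505, 479 and 472 CPM (1.52 ± 0.04, adjusted p = 1.8e-23). OCIAML-3 had it at 87.2, 84.2, 76.8 and 82.4 CPM in DMSO and 150, 146 and 141 CPM at 24 h (0.82 ± 0.05, not called), and the difference between the lines was under the threshold (-0.70 ± 0.06).

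ITGB2 (chr21:44885953-44931989, minus strand) was at 911, 830, 864 and 803 CPM in OCIAML-3 DMSO and 527, 511 and 515 CPM at 24 h (-0.72 ± 0.05, adjusted p = 1.5e-14). In Molm-14 it was at 354, 382, 368 and 348 CPM in DMSO, 279, 246, 237 and 238 CPM at 2 h (-0.54 ± 0.04) and 433, 433, 444 and 432 CPM at 24 h (0.26 ± 0.04). None of these was called, though the groups did not overlap. The gene overlaps the antisense gene ITGB2-AS1, and the 2 cannot be told apart where counting did not use strand, which is not given in the sources used here.

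Among the 4 oxidase subunits, NCF1 and NCF4 rose in Molm-14 at 24 h, and CYBB and NCF1 fell in OCIAML-3. NCF1 (chr7:74773962-74789315, plus strand), the cytosolic organiser subunit, was the 1 member called in opposite directions. Molm-14 held 30.5, 31.9, 31.5 and 29.8 CPM in DMSO, 36.7, 31.4, 34.2 and 31.9 CPM at 2 h and 229, 240, 225 and 211 CPM at 24 h, a rise at 24 h of 2.86 ± 0.07, adjusted p = 1.7e-25. OCIAML-3 held 239, 201, 229 and 198 CPM in DMSO, 108, 110, 110 and 134 CPM at 2 h and 52.5, 51.2 and 45.8 CPM at 24 h, a fall of -2.11 ± 0.07, adjusted p = 4.7e-22. The Molm-14 libraries at 24 h overlapped those of untreated OCIAML-3, and treated OCIAML-3 lay between the untreated lines. The difference in response was -4.98 ± 0.10, adjusted p = 2.1e-26, and it was called at 2 h already (-1.02 ± 0.09, adjusted p = 3.7e-10). The call at 2 h ended without OCIAML-3 DMSO replicate 1 (-0.97) or 3 (-0.99), without OCIAML-3 2 h replicate 1 (-0.99) or 3 (-1.0), without Molm-14 2 h replicate 1 (-0.98) and with library totals (-0.97). Of all 13033 genes, 30 (0.230%) rose in Molm-14 and fell in OCIAML-3 at 24 h. NCF1 has the near-identical pseudogenes NCF1B and NCF1C, so the division of reads is uncertain. Both were called with it at 24 h, at 2.92 and 3.14 in Molm-14 and -2.25 and -2.18 in OCIAML-3.

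CYBB (chrX:37780011-37813461, plus strand), the membrane subunit that passes electrons to oxygen, fell in OCIAML-3 from 290, 311, 306 and 329 CPM to 148, 152, 153 and 135 CPM at 2 h (-1.07 ± 0.27, adjusted p = 0.0017) and 80.1, 86.3 and 85.1 CPM at 24 h (-1.88 ± 0.30, adjusted p = 3.6e-06). In Molm-14 it counted 10 reads in DMSO and 1 read at 2 h over 4 libraries, a 10.7-fold lower level with an exact 95% interval of 1.52 to 464 (counting error only). The fitted change was not called (-0.93 ± 0.27), was called without DMSO replicate 2 (-1.29) or 2 h replicate 4 (-1.09) and with voom on the recovered reads (-1.94), and the 24 h value was not called either (-0.37 ± 0.27). CYBA (chr16:88643283-88651152, minus strand), its partner in the membrane, was not called in any drug comparison, at 462 ± 14.8 CPM in Molm-14 DMSO and 563 ± 14.6 CPM at 24 h, and at 636 ± 74 and 546 ± 36.1 CPM in OCIAML-3. NCF4 (chr22:36860988-36878015, plus strand), another cytosolic subunit, rose in Molm-14 from 22.4, 20.7, 19.5 and 22.8 CPM to 61.1, 61.3, 58.7 and 54.1 CPM (1.46 ± 0.05, adjusted p = 2.0e-20). OCIAML-3 had it at 268, 236, 262 and 235 CPM in DMSO, 194, 195, 186 and 202 CPM at 2 h and 388, 370 and 352 CPM at 24 h, so the libraries lay below DMSO at 2 h and above it at 24 h, without a call (-0.36 ± 0.05 and 0.57 ± 0.06). In Molm-14, then, 2 cytosolic subunits rose while CYBB stayed close to 0 reads. In OCIAML-3, CYBB and NCF1 fell while NCF4 did not.

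**Figure D4:**
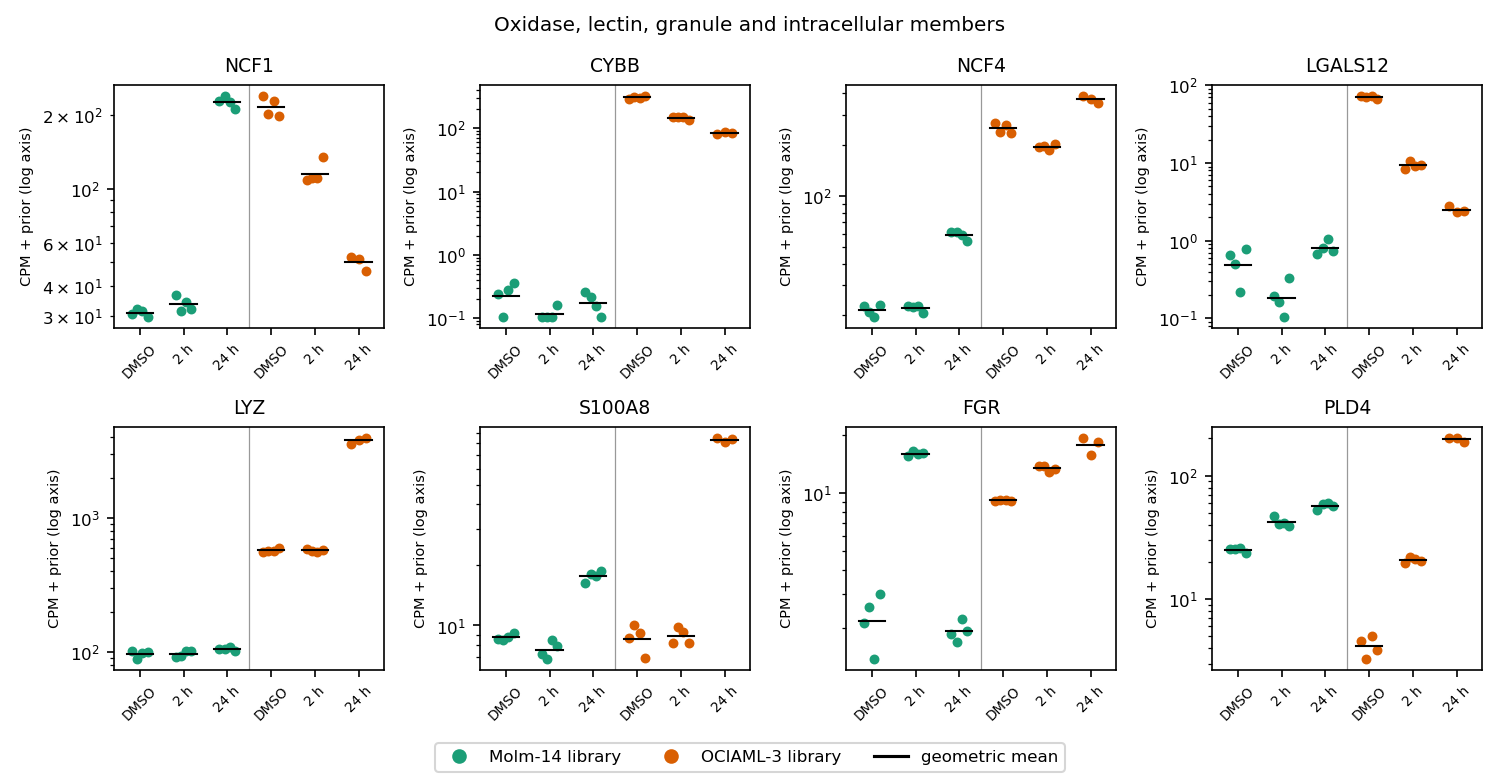
CPM plus the prior (log axis) of 8 oxidase, lectin, granule and intracellular members in every library, Molm-14 in green and OCIAML-3 in orange, with a bar at the geometric mean. NCF1 climbs in Molm-14 and declines in OCIAML-3, FGR peaks at 2 h in Molm-14, and LYZ and S100A8 stand far above DMSO at 24 h in OCIAML-3.

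The 3 lectins split. LGALS3 (chr14:55124110-55145413, plus strand), a galectin secreted by macrophages, rose in Molm-14 at 2 h from 0.643, 0.651, 0.506 and 0.372 CPM to 1.82, 1.59, 1.78 and 1.78 CPM (1.54 ± 0.16, adjusted p = 9.5e-10). It stayed there at 24 h with 2.03, 2.42, 1.33 and 1.46 CPM (1.55 ± 0.16, adjusted p = 3.3e-10); both calls ended with a prior of 1 CPM (0.83 and 0.85). In OCIAML-3 it went from 9.76, 8.97, 8.44 and 9.94 CPM to 12, 13.1, 9.59 and 10.1 CPM at 2 h (0.26 ± 0.16, not called) and rose to 49.1, 46.9 and 47 CPM at 24 h (2.35 ± 0.17, adjusted p = 9.9e-14). LGALS12 (chr11:63506084-63516774, plus strand), a galectin of fat and myeloid cells, had the deepest fall of any member. OCIAML-3 held 73.7, 71.2, 73.2 and 65.8 CPM in DMSO, 8.19, 10.5, 9.08 and 9.21 CPM at 2 h and 2.67, 2.24 and 2.27 CPM at 24 h. The changes were -2.93 ± 0.29, adjusted p = 1.3e-09 and -4.83 ± 0.32, adjusted p = 3.7e-14, and the 3 groups did not overlap. In Molm-14, where it was below 1 CPM, it fell at 2 h from 0.551, 0.391, 0.112 and 0.682 CPM to 0.0912, 0.0548, 0 and 0.23 CPM (-1.42 ± 0.29, adjusted p = 1.4e-04), with overlapping libraries and no call with a prior of 1 CPM (-0.38). FCN1 (chr9:134905890-134917963, minus strand), a ficolin that monocytes secrete and that starts the lectin pathway of complement, fell in OCIAML-3. It was at 3.63, 3.93, 3.75 and 3.32 CPM in DMSO, 1.45, 2.45, 1.74 and 2.33 CPM at 2 h (-0.87 ± 0.25, not called) and 0.501, 0.267 and 0.508 CPM at 24 h (-2.86 ± 0.27, adjusted p = 4.0e-11, and -1.71 with a prior of 1 CPM). FCN1 reached 1 CPM only in OCIAML-3 DMSO and at 2 h, so its row comes through the groups where it is high. Its fall at 24 h is a description.

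Of 10 granule and lysosome genes, 1 rose and 1 fell in Molm-14 at 24 h, and 4 rose and 1 fell in OCIAML-3. The Molm-14 shares are near those of all genes (11.4% higher, 6.57% lower); in OCIAML-3 all genes had 18.4% and 17.1%. LYZ (chr12:69348341-69354234, plus strand), the antibacterial lysozyme of monocytes, was at 559, 571, 566 and 599 CPM in OCIAML-3 DMSO, 586, 572, 556 and 582 CPM at 2 h and 3584, 3818 and 3976 CPM at 24 h. It rose there at 24 h (2.72 ± 0.05, adjusted p = 3.1e-29), and in Molm-14 it went from 102, 89.6, 98.1 and 101 CPM to 105, 106, 110 and 102 CPM (0.12 ± 0.04, not called). The difference between the lines was 2.61 ± 0.06, adjusted p = 5.5e-24. S100A8 (chr1:153390032-153391188, minus strand), a calcium-binding subunit of calprotectin, was at 8.59, 9.9, 9.03 and 6.76 CPM in OCIAML-3 DMSO and 85.4, 80.8 and 83.8 CPM at 24 h (3.28 ± 0.10, adjusted p = 2.6e-23). It also rose in Molm-14, from 8.49, 8.4, 8.67 and 9.05 CPM to 16.2, 17.9, 17.4 and 18.6 CPM (1.01 ± 0.09, adjusted p = 3.0e-11), close to the threshold. That call ended without DMSO replicate 1 (1.00) or 2 (0.99), without 24 h replicate 2 (1.00) or 4 (0.98), each just short of the threshold, and with a prior of 1 CPM (0.94). The partner subunit S100A9, 29 kb away, did not pass in either line. It was at 15.2, 13.6, 17.7 and 13.7 CPM in OCIAML-3 DMSO, 10.1, 9.33, 8.46 and 8.56 CPM at 2 h and 28.7, 27 and 34.2 CPM at 24 h (0.99 ± 0.09, adjusted p = 2.9e-11), just under the threshold, which it passed without DMSO replicate 3 (1.07), without 24 h replicate 1 (1.02) or 2 (1.06) and with either other scaling (1.16 and 1.05). In Molm-14 it was at 22.9 ± 1.33 CPM in DMSO and 19.8 ± 0.656 CPM at 24 h (-0.21 ± 0.08), and the difference between the lines was called (1.20 ± 0.12, adjusted p = 1.3e-09). CTSS (chr1:150730196-150765957, minus strand), a cathepsin that trims the invariant chain of MHC class II, rose in OCIAML-3 from 68.6, 68.2, 65.5 and 64.4 CPM to 211, 226 and 234 CPM (1.74 ± 0.05, adjusted p = 8.3e-24). Molm-14 held 103 ± 3.24 CPM in DMSO and 157 ± 4.8 CPM at 24 h (0.61 ± 0.05, not called).

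The azurophil granule genes AZU1, PRTN3 and ELANE, which encode azurocidin and 2 serine proteases, lie side by side on chromosome 19, with gaps of 8.94 and 2.84 kb. They did not move together. AZU1 (chr19:825097-832018, plus strand) was at 684, 629, 689 and 567 CPM in OCIAML-3 DMSO, 1055, 1045, 985 and 1219 CPM at 2 h (0.74 ± 0.06, not called) and 1829, 1653 and 1553 CPM at 24 h, where it rose (1.39 ± 0.07, adjusted p = 4.1e-17). PRTN3 (chr19:840960-848175, plus strand) was at 285, 244, 279 and 219 CPM in DMSO and 184, 173 and 164 CPM at 24 h (-0.56 ± 0.08, not called). ELANE (chr19:851014-856247, plus strand) was at 940 ± 113 CPM in DMSO and 1003 ± 50.3 CPM at 24 h, with overlapping libraries (0.10 ± 0.08). In Molm-14 at 24 h the values were 0.53 ± 0.06 for AZU1, -0.48 ± 0.07 for PRTN3 and 0.58 ± 0.07 for ELANE, none called, though the libraries of each lay apart from DMSO. CFD, the complement factor gene next to ELANE and no member, rose in both lines at 24 h (1.72 and 1.74).

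MPO (chr17:58269856-58280935, minus strand), myeloperoxidase, was low in both lines. It fell in Molm-14 from 2.85, 3.12, 2.36 and 2.98 CPM to 0.26, 0.588, 0.998 and 0.57 CPM at 24 h (-2.15 ± 0.23, adjusted p = 9.7e-10; -1.27 with a prior of 1 CPM), and in OCIAML-3 its libraries overlapped DMSO at 2.12, 1.18 and 2.16 CPM (-0.51 ± 0.25). CTSG (chr14:24573522-24576260, minus strand), the granule protease cathepsin G, was in OCIAML-3 at 1981 ± 123 CPM in DMSO and 3114 ± 165 CPM at 24 h (0.65 ± 0.04, not called). In Molm-14 it was at 139 ± 2.63 CPM in DMSO and 264 ± 3.32 CPM at 24 h (0.92 ± 0.04), short of the threshold and past it with library totals (1.02). MMP9 (chr20:46008908-46016561, plus strand), a gelatinase of neutrophil granules, fell in OCIAML-3. It was at 7.3, 7.35, 7.3 and 6.3 CPM in DMSO, 5.85, 5.12, 5.31 and 5.65 CPM at 2 h and 0.669, 0.641 and 0.442 CPM at 24 h (-3.39 ± 0.31, adjusted p = 2.5e-11; -2.35 with a prior of 1 CPM). Only the OCIAML-3 DMSO and 2 h libraries reached 1 CPM of MMP9, so its fall at 24 h is likewise a description. MMP9 overlaps the antisense gene SLC12A5-AS1 in the annotation.

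The largest rise of any member in each line belonged to an intracellular protein, LSP1 in Molm-14 and PLD4 in OCIAML-3. LSP1 (chr11:1852970-1892267, plus strand), an F-actin-binding protein of leukocytes, was low in untreated Molm-14 at 0.643, 0.716, 0.675 and 0.434 CPM. It was at 1.41, 1.48, 0.865 and 1.26 CPM at 2 h (0.91 ± 0.12, not called; 1.06 and called without 2 h replicate 3) and rose to 52, 50.1, 51.7 and 50.7 CPM at 24 h (6.17 ± 0.12, adjusted p = 6.5e-26; 5.01 with a prior of 1 CPM). In OCIAML-3 it went from 51, 51.5, 57.5 and 48.6 CPM in DMSO to 456, 421 and 398 CPM at 24 h (3.03 ± 0.13, adjusted p = 1.2e-18). The treated Molm-14 libraries overlapped those of untreated OCIAML-3. PLD4 (chr14:104924713-104937790, plus strand), an exonuclease of endolysosomes that degrades single-stranded nucleic acids, rose at both times in OCIAML-3. It was at 4.45, 3.19, 4.91 and 3.79 CPM in DMSO, 19.5, 21.9, 20.9 and 20.2 CPM at 2 h and 203, 200 and 186 CPM at 24 h. It was the 1 member that rose at 2 h in this line (2.32 ± 0.08, adjusted p = 3.5e-20), and it went on to 5.57 ± 0.09, adjusted p = 5.7e-30 at 24 h. Molm-14 held 25.5, 25.5, 25.6 and 23.7 CPM in DMSO, 46.6, 40.1, 41.5 and 39.1 CPM at 2 h (0.73 ± 0.08, not called) and 52.5, 59.2, 59.5 and 56.1 CPM at 24 h (1.18 ± 0.08, adjusted p = 8.6e-14). LSP1 and PLD4 overlap PRR33 and AHNAK2 on the opposite strand.

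FGR (chr1:27612064-27635277, minus strand), a SRC-family kinase of myeloid cells that acts below integrins and Fc receptors, rose in Molm-14 at 2 h but not at 24 h. It was at 2.02, 2.46, 1.29 and 2.91 CPM in DMSO, 15.4, 16.3, 15.8 and 15.9 CPM at 2 h and 1.77, 1.6, 2.14 and 1.84 CPM at 24 h. The rise at 2 h was 2.86 ± 0.14, adjusted p = 5.3e-17, and at 24 h the libraries overlapped DMSO (-0.18 ± 0.14). OCIAML-3 had it at 8.94, 9.11, 9.07 and 9.01 CPM in DMSO, 13.7, 13.7, 12.7 and 13.2 CPM at 2 h and 19.2, 15.6 and 18.2 CPM at 24 h, with 0.55 ± 0.14 at 2 h and 0.95 ± 0.15 at 24 h, not called. The latter passed the threshold without 24 h replicate 2 (1.04) and with either other scaling (1.13 and 1.01). IRF8 (chr16:85898803-85922609, plus strand), a transcription factor of monocytes and dendritic cells, was not called in any drug comparison, at 1176 ± 35.4 CPM in OCIAML-3 DMSO and 873 ± 23 CPM at 24 h (-0.43 ± 0.04), and at 586 ± 18.8 and 500 ± 4.33 CPM in Molm-14 (-0.23 ± 0.03).

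Set beside each other, the lines shared most of their rises at 24 h. Of the 20 members that rose in Molm-14 and the 20 that rose in OCIAML-3, 16 were the same genes, that is, 16 of 47 members. Over all genes, 1019 (7.82%) were higher in both, of 1481 higher in Molm-14 and 2392 higher in OCIAML-3. Most Molm-14 rises were thus shared over all genes too. FCGR1A and LST1 fell in both (5.61% of all genes did). FCER1G, ITGAL and NCF4 rose in Molm-14 with no call in OCIAML-3 (3.31% of all genes), and AZU1, CD1D, CTSS and LYZ the reverse (10.5%). MPO fell with a call in Molm-14 alone (0.882% of all genes), and CD14, CYBB, FCN1, LGALS12 and MMP9 in OCIAML-3 alone (11.3%); the last 5 were below 1 CPM in Molm-14 throughout. In neither line at 24 h were 15 members called (60.4% of all genes), and 12 were called in no drug comparison at either time (58.2%).

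A test of the difference itself, OCIAML-3 minus Molm-14, called 10 members at 2 h (3 higher and 7 lower, 21.3% against 5.64% of all genes; 2.12% higher, 3.52% lower). At 24 h it called 23 (9 higher and 14 lower, 48.9% against 17.8%; 8.09% higher, 9.75% lower). Of the 14 lower at 24 h, CD14, CYBB, LGALS12, FCN1 and MMP9 were below 1 CPM in every Molm-14 group. Their Molm-14 side rests on few reads, so these differences mostly describe the fall in OCIAML-3. The same holds for CD14 and LGALS12 among the 7 lower at 2 h. At 24 h the granule and lysosome genes leaned to OCIAML-3, with 5 of 10 higher and 1 lower: LYZ, S100A8, S100A9, CTSS and MPO higher, MMP9 lower. For MPO the sign came from a fall in Molm-14 that OCIAML-3 did not show. Among Fc receptors and adapters 4 of 5 were lower and none higher, although FCGR2A and FCGR2B rose in both lines: their rises were smaller in OCIAML-3, with differences of -1.30 and -2.5. PLD4 had the largest positive difference (4.39 ± 0.12), and LGALS12 (-5.56 ± 0.43) and NCF1 (-4.98 ± 0.10) the largest negative ones; the Molm-14 side of LGALS12 lies below 1 CPM. Some of these differences were no longer called under another setting: FGR at 24 h without Molm-14 DMSO replicate 4 (0.98), LILRB2 at 2 h without Molm-14 DMSO replicate 2 (-0.99), and FCER1G, CD86 and MPO at 24 h with a prior of 1 CPM (-0.57, -0.75 and 0.92). That prior also ended the calls at 2 h of LGALS3 (-0.59), FCER1G (-0.98) and LILRB2 (-0.70), and voom on the recovered reads those of LGALS12 at 2 h (-0.80) and CYBB at 24 h (-1.28).

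**Figure D5:**
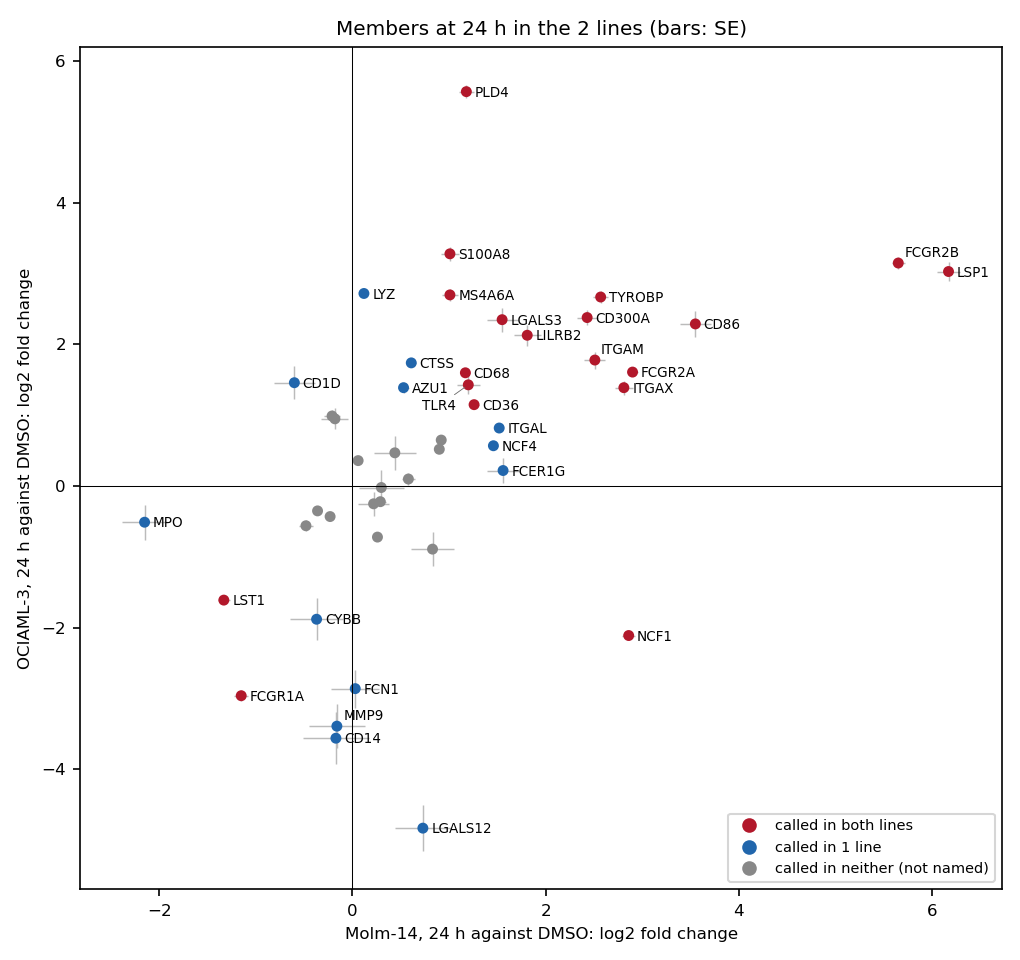
Log2 fold change at 24 h against DMSO in Molm-14 (horizontal) and OCIAML-3 (vertical), 1 point per member with bars of 1 SE; red points were called in both lines, blue in 1 and grey in neither. Most red points lie in the upper right, FCGR1A and LST1 in the lower left, and NCF1 alone in the lower right.

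The direct comparison of 24 h with 2 h, which uses no DMSO library, gave 19 members higher and 2 lower in Molm-14 (44.7% against 10.6% of all genes; 7.25% higher, 3.38% lower). In OCIAML-3 it gave 22 higher and 6 lower (59.6% against 22.6%; 11.6% higher, 10.9% lower). The medians were 0.80 and 0.75 over the members and 0.00 and 0.01 over all genes. The 2 members lower in Molm-14 were FGR (-3.04 ± 0.14) and MPO (-2.36 ± 0.23). In OCIAML-3, S100A9 rose between the times (1.70 ± 0.09), as did FCER1G (1.04 ± 0.18), which had been lower at 2 h without a call. FCN1 and MMP9 are among the 6 lower there. They reached 1 CPM only in OCIAML-3 DMSO and at 2 h, so their falls are a description. CD14 was the least certain of the 6 lower there (-1.0 ± 0.37), and its libraries overlapped. The call ended without 2 h replicate 2 (-0.98) or 4 (-0.90), without 24 h replicate 1 (-0.59) or 4 (-0.97), with library totals (-0.90), with median-of-ratios scaling (-0.97) and with a prior of 1 CPM (-0.28).

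Promoter windows of 300 bases, 250 before and 50 after the RefSeq start, were found for 35 of the 48 members. GAGGAA, read on both strands, occurred in 26 of 35 (74.3%), and in 27.8% of the windows of 17393 genes. The C/EBP letters TTGCNNAA occurred in 5 (14.3% against 8.70%), the IRF letters (GAAA, any 2 bases, GAAA) in 4 (11.4% against 3.32%), the STAT letters TTCNNNGAA in 3 (8.57% against 7.23%) and the AP-1 letters TGANTCA in 3 (8.57% against 6.58%). The PU.1 letters were present among members of each direction: in Molm-14 at 24 h in 12 of 16 that rose, 2 of 2 that fell and 12 of 16 not called. In OCIAML-3 they were in 12 of 16 that rose, 6 of 6 that fell and 8 of 12 not called; TLR8 is not in these counts. The gene SPI1 itself was not called in any drug comparison.

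Other genes of the same biology, 129 in 4 lists, had a row for 88. In Molm-14, 9 of these rose and 6 fell at 2 h, and 25 rose and 5 fell at 24 h. These shares, 17.0% and 34.1%, stand beside 7.29% and 17.9% of all genes. In OCIAML-3, 3 rose and 2 fell at 2 h, and 32 rose and 3 fell at 24 h, 5.68% and 39.8% beside 6.58% and 35.4% of all genes, so both are near the background when higher and lower are counted as one. By direction at 24 h, all genes had 18.4% higher and 17.1% lower there. Among these 88, rises were more frequent than that and falls rarer. Of 32 other myeloid receptors, 10 rose and 3 fell in Molm-14 at 24 h, and 17 rose and 1 fell in OCIAML-3. That is 40.6% and 56.2% called, beside 17.9% and 35.4% of all genes. CSF1R, the receptor of macrophage growth factors, rose from 6.97 to 88.0 CPM in Molm-14 (3.64 ± 0.06, adjusted p = 1.2e-29). The receptor chain CSF2RA rose in OCIAML-3 from 1.43 to 24.3 CPM (4.0 ± 0.08, adjusted p = 3.3e-27), and PILRA, an inhibitory receptor, from 5.21 to 77.8 CPM (3.87 ± 0.17, adjusted p = 3.5e-19). Of 18 other genes of the oxidase, integrins and their signalling, 3 rose in Molm-14 and 4 in OCIAML-3 at 24 h, 16.7% and 22.2% beside 11.4% and 18.4% of all genes higher. The integrin beta chain ITGB7 was among them in both lines, and it went from 11 to 177 CPM in OCIAML-3 (4.0 ± 0.08, adjusted p = 2.0e-28). Among 26 other granule and lysosome genes, 11 rose and 1 fell in Molm-14 at 24 h, and 9 rose and none fell in OCIAML-3. The shares called were 46.2% and 34.6%, beside 17.9% and 35.4% of all genes. The OCIAML-3 share is near the background only when higher and lower are counted as one. By direction, its 34.6% were all higher, beside 18.4% higher and 17.1% lower over all genes. Properdin (CFP) went from 1.89 to 19.4 CPM in Molm-14 (3.31 ± 0.10, adjusted p = 1.2e-22) and S100A4 from 60.7 to 589 CPM (3.28 ± 0.04, adjusted p = 2.8e-31). Of 12 myeloid transcription factors, CEBPD, a factor of the C/EBP family, fell in OCIAML-3 at 2 h from 155 to 64.6 CPM (-1.25 ± 0.07, adjusted p = 1.1e-15).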

How the data were processed

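Poly(A) RNA from 24 samples in 6 groups was sequenced, and 23 library columns were used. The submitters' processing notes, among the labels, name Trimmomatic 0.36, STAR 2.7.8a, RSEM 1.3.3, MultiQC 1.28, edgeR 3.24.3 and limma 3.38.3, and GRCh38. The authors deposited log2 CPM values with a prior, the lowest of which is -3.26, or 0.105 CPM at 0 reads. Whole-read steps gave effective library sizes; 75.4 to 82.8% of values of at most 20 reads lay within 0.05 of a whole read.

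One limma 3.58.1 model (R 4.3.3; trend and robust moderation) of 6 group means was fitted to all 13033 genes, with Benjamini-Hochberg adjustment in each of 9 comparisons, after the code was tested on simulated data. Members and gene lists were chosen with earlier results of these data known. All members are accounted for by role. Of the other lists, the 4 or fewer called genes with the largest changes in each drug comparison were named, if the higher group reached 5 CPM. Paralogues, CFD, SPI1, TRAC, NKG7 and PAX5 were named after values were seen, and some genes of the other lists are not reported here. Coordinates came from GENCODE 29 and promoters from RefSeq (GRCh38.p14). Alternatives were a replicate block, 2 other scalings, a prior of 1 CPM, a filter of 1 CPM in 4 libraries, plain moderation, voom on recovered reads, a fit of the compared groups alone, and leaving out each library.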

Additional observations from a re-analysis of the deposited data

Results flagged for a closer look

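The response at 24 h differed between the lines, OCIAML-3 minus Molm-14 and by the test of the difference itself, in 23 members. It was lower in OCIAML-3 for LGALS12 (-5.56), NCF1 (-4.98), CD14 (-3.39), MMP9 (-3.23), LSP1 (-3.14), FCN1 (-2.89), FCGR2B (-2.5), FCGR1A (-1.81), CD163 (-1.71), CYBB (-1.51), ITGAX (-1.42), FCER1G (-1.34), FCGR2A (-1.30) and CD86 (-1.26). For LSP1, FCGR2B, FCGR2A, ITGAX and CD86 this was a smaller rise, and for FCGR1A a deeper fall. It was higher in OCIAML-3 for PLD4 (4.39), LYZ (2.61), S100A8 (2.27), CD1D (2.06), MS4A6A (1.68), MPO (1.64), S100A9 (1.20), CTSS (1.14) and FGR (1.13). Calls were lost for FCER1G (-0.57), CD86 (-0.75) and MPO (0.92) with a prior of 1 CPM, for CYBB (-1.28) with voom on the recovered reads, and for FGR (0.98) without Molm-14 DMSO replicate 4. The difference in CD14 at either time is a description, as only the OCIAML-3 DMSO libraries reached 1 CPM. Those of FCN1 and MMP9 at 24 h are too, as only the OCIAML-3 DMSO and 2 h libraries did. CYBB and LGALS12 were also below 1 CPM in every Molm-14 group.

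At 2 h the difference was called for 10 members. FGR (-2.31), which rose in Molm-14, CD14 (-2.25), LGALS12 (-1.52), LGALS3 (-1.28), FCER1G (-1.25), LILRB2 (-1.15) and NCF1 (-1.02) were lower in OCIAML-3. CD1D (2.13), PLD4 (1.59) and CD300A (1.15) were higher there. A prior of 1 CPM ended the calls of LGALS3 (-0.59), FCER1G (-0.98) and LILRB2 (-0.70), voom that of LGALS12 (-0.80), library totals that of NCF1 (-0.97), and leaving out 1 library that of NCF1 (-0.97 to -1.0) or LILRB2 (-0.99).

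In 13 of 234 groups of 4 libraries, a single library lay far from the other 3; chance alone does this in about 1 group in 20. In Molm-14 at 24 h these were CD36 in replicate 4 (122 CPM, others 110 to 112), CD300A in replicate 4 (49.6 CPM), ITGB2 in replicate 3 (444 CPM) and MMP9 in replicate 2 (0.908 CPM). In Molm-14 at 2 h they were replicate 4 for ITGAM (7.52 CPM), CYBB (0.0575 CPM) and NCF4 (20.5 CPM), and replicate 3 for ITGAX (8.66 CPM). The others were PLD4 in Molm-14 DMSO replicate 4 (23.7 CPM), SIGLEC7 in OCIAML-3 DMSO replicate 1 (32.7 CPM), MMP9 in OCIAML-3 DMSO replicate 4 (6.30 CPM), and NCF1 (134 CPM) and PRTN3 (311 CPM) in OCIAML-3 2 h replicate 4.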

How the results depend on the processing

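There were 31 alternative settings, and 23 of them left out 1 library and were applied only to comparisons that use that library. Of 62 calls of members in the 4 drug comparisons, 53 held under every setting applied to them and 9 ended under some. Of 126 uncalled values, 8 were called under some, and 0 calls changed sign. With log2(CPM + 1) the calls were 1 higher and 2 lower for Molm-14 at 2 h, 4 lower for the difference between lines at 2 h, and 3 lower for the lines in DMSO, against 2, 4, 7 and 5; no other count of calls moved by over 1.5 times. Leaving out each library gave 2 to 3 higher and 3 to 5 lower (Molm-14, 2 h), 18 to 20 and 3 (Molm-14, 24 h), 1 and 3 to 5 (OCIAML-3, 2 h), and 20 to 22 and 8 (OCIAML-3, 24 h). Library totals moved the median of all genes by 0.10 in Molm-14 and 0.18 in OCIAML-3 at 24 h, and the genes called higher and lower to 1738 and 629 from 1481 and 856, and to 2904 and 1816 from 2392 and 2228.

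Uncalled values near 0 changed sign. Library totals gave 0.02 for CD300A in OCIAML-3 at 2 h and 0.15 for SIGLEC7 in OCIAML-3 at 24 h, and median-of-ratios scaling gave 0.04 for the latter. Leaving out each library gave ranges of -0.46 to 0.02 (CD14), -0.04 to 0.03 (CD36) and -0.01 to 0.07 (NCF4) in Molm-14 at 2 h. In Molm-14 at 24 h they were -0.31 to 0.07 (CD14), -0.07 to 0.15 (FCN1) and -0.64 to 0.04 (MMP9). In OCIAML-3 they were -0.07 to 0.11 (S100A8, 2 h) and -0.10 to 0.02 (SIGLEC7, 24 h). Fewer samples apart, the cause was not tested.

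Libraries with the same replicate number did not deviate together (median r 0.00 over 22 pairs, -0.45 to 0.32, and 0.01 for other numbers), and 8 of 23 correlated best with their own number. With the replicate number as a block, 21 members rose in OCIAML-3 at 24 h instead of 20, S100A9 passing at 1.00; no other count of called members changed. Low levels limit CYBB, SIGLEC7, TLR2, CD14, FCN1, MMP9 and LGALS12 in Molm-14, whose changes rest on few reads.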
